A study of Mus musculus with 9 samples.

Results

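Fibroblasts sorted from the livers of mice with nonalcoholic steatohepatitis (NASH-fib) were compared with hepatic stellate cells (HSCs) of healthy mouse livers, gene by gene and in both directions. The comparison takes the 3 libraries labelled as NASH fibroblasts and the 3 labelled as hepatic stellate cells, 6 of the 9 libraries of the series, and all 24453 genes of the table of RNA sequencing values, of which 13651 held enough reads to be tested. The other 3 libraries, of fibroblasts from livers injured with carbon tetrachloride (CCl4-fib), entered the same fit, so they bear on the spread and on which genes were tested (12525 in a fit on 2 groups), and are set beside a few genes at the end. NASH-fib came from male mice of the MC/COL line, which lack the melanocortin 4 receptor (MC4R-KO) and carry the Col1a2-GFP transgene (Tg), in which the promoter of the collagen gene Col1a2 drives green fluorescent protein. These mice were 8 weeks old at the start and ate a Western diet (WD) for 20 weeks, and their cells were sorted as alive (7-AAD-), CD45- and GFP+. HSCs came from wild-type C57BL/6J mice labelled normal, with no sort, by digestion with collagenase and a density gradient, and their age is not given in the sources used here. CCl4-fib came from Col1a2-GFP Tg mice that received CCl4 for 8 weeks, at 2 doses per week. Each library held cells pooled from 3 to 5 mice. The paper gives a sex and a starting age for the NASH-fib mice alone, so both may also differ between groups. Genotype, transgene, diet and way of isolation all changed together between NASH-fib and HSCs, so their contributions cannot be told apart, and the sort on a collagen promoter keeps only cells in which that promoter is active.

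HSCs lie between hepatocytes and the sinusoidal endothelium and are the main store of vitamin A in the body, which they keep as retinyl esters in lipid droplets. In the healthy liver they also send signals to their neighbours, among them hepatocyte growth factor, R-spondin 3 and bone morphogenetic proteins. On injury they lose their droplets, become contractile and lay down collagen, and are then called myofibroblasts. Fibroblasts of the portal tracts, mesothelial cells of the liver surface, and smooth muscle cells and pericytes of the vessels can make collagen too, so a gate on a collagen promoter can collect any of them.

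Reads on genes numbered 3071070 to 3825522 in HSC libraries and 3289758 to 5021156 in NASH-fib libraries. A value below is the deposited one, in which every library sums to about 4471991, so 3 reads in a library stand for a value of 2.67 to 4.37 in these 6 libraries. HSC replicate 2 and NASH-fib replicate 1 stood apart, since genes of high GC content read low in both. Their median deviation from the gene mean was 0.56 in the fifth of genes with the lowest GC content and -0.85 in the fifth with the highest in HSC replicate 2, and 0.79 and -1.19 in NASH-fib replicate 1, on the log2 scale. With a correction for GC content and length, 1228 genes were higher and 716 lower, and of 220 named genes 216 stayed on their side of the test, none changed sign, 3 lost their call and 1 gained one. Counts of gene lists without both of these libraries are given below where they move by over 1.5 times or add a direction. These 2 libraries also share a leading number in their labels that no other NASH-fib or HSC library has. CCl4-fib replicate 1 bears it too, with the opposite dependence on GC content (-0.33 and 0.82 in the same low and high classes), and the sources used here do not say what it stands for. A fit with that number as a block called 549 genes higher and 119 lower. HSC replicate 1 alone bears its number, so it had no weight on the group difference in that fit. HSC replicate 2 and NASH-fib replicate 1 were the only HSC and NASH-fib pair under the same number. HSC replicate 3 met NASH-fib only through CCl4-fib libraries. With 1 library of each group under the shared number, no test within it could be made.

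**Figure D1:**
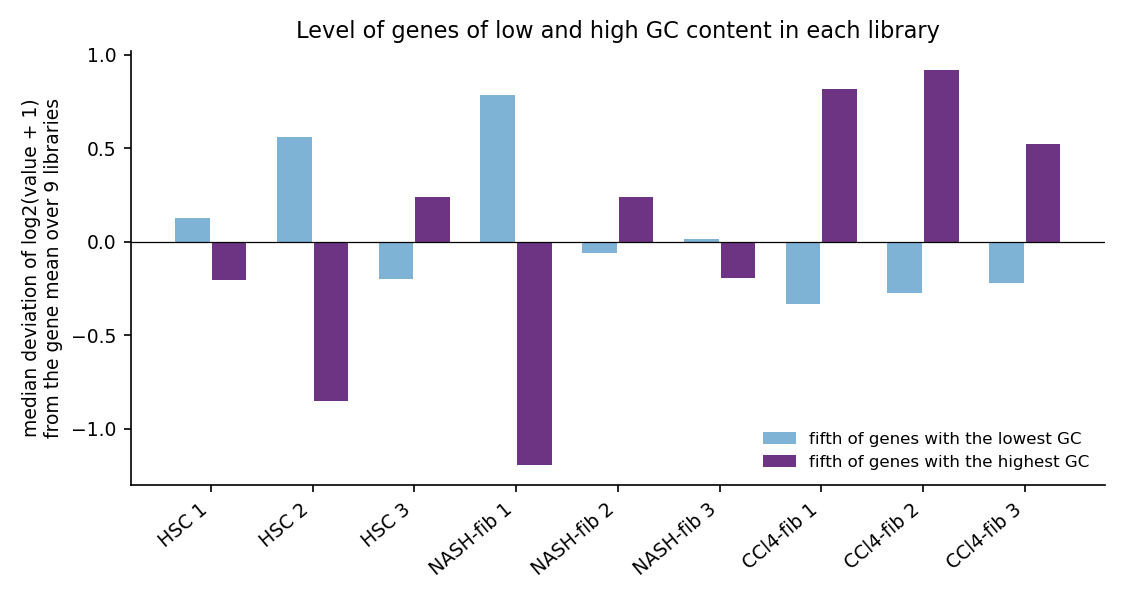
Median deviation of log2(value + 1) from the gene mean over all 9 libraries, for the fifth of genes with the lowest GC content (light bars) and the fifth with the highest (dark bars), in each library. HSC 2 and NASH-fib 1 have low dark bars at -0.85 and -1.19, and the 3 CCl4-fib libraries have the opposite order.

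NASH-fib differed from HSCs in both directions, with more and larger changes on the higher side. A gene was called when its log2 fold change was at least 1 in size and its adjusted p was under 0.05 in limma, a linear model that shares information on the spread over all genes, on log2(value + 1). Of the 13651 genes tested, 1124 were called higher (8.23%) and 587 lower (4.3%), and 11940 were not called. These shares of all genes tested are the background for every count of a gene list below. The median size of the log2 change was 3.70 for genes called higher and 2.62 for genes called lower. A log2 change of at least 5 was reached by 256 genes on the higher side and 41 on the lower side. NASH-fib and HSC values did not overlap for 3326 of the genes tested (24.4%), among them 1114 of those called higher and 585 of those called lower. No read was seen in any HSC library for 190 of the genes called higher, and none in any NASH-fib library for 9 of the genes called lower. In 9 fits that each left out 1 library, 759 of the higher and 289 of the lower genes were called every time. Without HSC replicate 1 the lower side held 325 genes, the smallest count of these 9 fits. Without HSC replicate 2 and NASH-fib replicate 1, 1346 genes were higher and 704 lower, and these included 990 and 485 of the genes called with all libraries. Whether the 3 libraries of a group came from separate preparations is not stated, and NASH-fib replicates 2 and 3 share a leading number in their labels. The p-values therefore measure the spread between these pools.

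**Figure D2:**
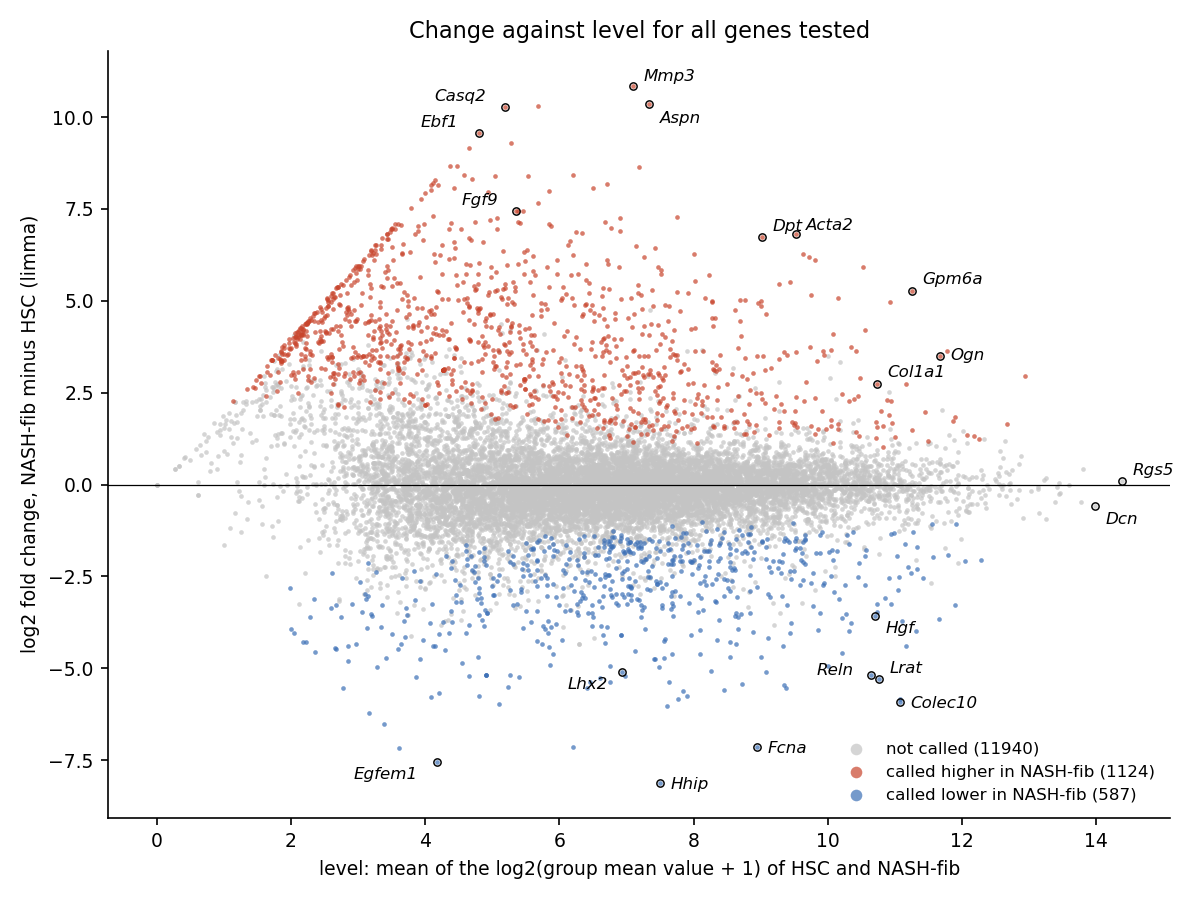
Log2 fold change (NASH-fib minus HSC, limma) of every gene tested, against its level, the mean of the log2(group mean value + 1) of both groups. Red points are the 1124 genes called higher and blue points the 587 called lower; genes such as Mmp3 and Aspn reach changes above 10, and Hhip is the lowest point at -8.12.

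The genes of the sort and of the mouse line were read first. Mc4r, the gene knocked out in the NASH-fib line, was at 0 in all 3 HSC libraries and at 5.44, 11.6 and 0 in NASH-fib. Its reads were too few for a test and cannot check the labels. Col1a2, whose promoter drives the GFP of the sort, rose from 1291, 2065 and 930.1 in HSCs to 7426, 5263 and 3860.5 in NASH-fib (log2 change 1.98, standard error 0.38, limma adjusted p = 0.0061). All NASH-fib libraries lay above all HSC libraries, but the gate chose cells for this gene. Ptprc, which encodes CD45, was at 88.8, 315 and 258 in HSCs and 319, 62.3 and 312 in NASH-fib, so the groups overlapped although only NASH-fib cells had been gated against CD45 (log2 fold change -0.07, limma adjusted p = 0.98).

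Markers of quiescent HSCs were present in the HSC libraries and low in NASH-fib. The 23 markers summed to 74176, 74225 and 65016 in HSC libraries and to 5709, 7988 and 4893 in NASH-fib libraries. Of 22 that were tested, 18 were called lower and 0 higher, against 4.3% and 8.23% of all genes, and their median log2 fold change was -3.45 (median of all genes -0.02). With the leading number of the labels as a block, 8 of the markers were called lower. Without HSC replicate 2 and NASH-fib replicate 1, 19 were lower and 1 was higher. Desmin (Des), an intermediate filament protein used to stain HSCs, was at 168, 32.0 and 302 in HSCs and 32.6, 1102 and 495 in NASH-fib, overlapping between groups. Gfap, another filament protein of HSCs, held few reads in any library and was not tested, with values of 44.4, 8.74 and 37.1 in HSCs and 0, 5.34 and 1.97 in NASH-fib.

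Markers of the endothelial cells that line the sinusoids were also lower in NASH-fib. Of 19 markers of sinusoidal endothelial cells, 15 were called lower and none higher. With the leading number of the labels as a block the count was 2. The markers summed to 29712, 27021 and 35273 in HSCs and 6794, 2358 and 6869 in NASH-fib. Ehd3, a membrane trafficking protein, had values of 8877, 7215 and 7837 in HSCs and 699, 502 and 626 in NASH-fib, with a log2 change of -3.72 ± 0.40 (standard error) and a limma adjusted p = 0.00018. Stab1, a scavenger receptor of these cells, read 434, 526 and 954 in the HSC libraries and 54.4, 64.1 and 112 in the NASH-fib libraries, a log2 change of -3.02 (standard error 0.49, limma adjusted p = 0.0021). For both genes the lowest HSC library was above the highest NASH-fib library. Pecam1, the endothelial adhesion molecule, was at 1034, 191 and 943 in HSCs and 223, 92.6 and 429 in NASH-fib and was not called (limma adjusted p = 0.31). Of 18 macrophage markers, 4 were called lower and none higher, a count that fell to 0 without HSC replicate 3 or NASH-fib replicate 2 and to 2 without HSC replicate 2. Without both HSC replicate 2 and NASH-fib replicate 1, none was lower and 1 was higher. The lower count was 0 with the leading number as a block and 7 after correcting for GC content and length, while 5 of the 18 had log2 fold changes above 0. The called ones were Timd4, Marco, Clec4f and Csf1r, of which the first 3 mark Kupffer cells. Clec4f was at 1352, 593 and 4479.7 in HSCs and 36.7, 45.4 and 339 in NASH-fib, and its call was also lost without HSC replicate 1 (log2 fold change -4.28), NASH-fib replicate 1 (-3.61) or CCl4-fib replicate 1 (-4.19). Hemoglobin genes made up the 4 called lower among 9 markers of red cells and platelets, a count of 2 without HSC replicate 1; the hemoglobin copies are nearly identical and share reads. The NASH-fib isolation included lysis of red cells, whose part was not tested. In bulk libraries, fewer cells of a type and less RNA per cell cannot be told apart.

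Markers of portal fibroblasts, mesothelial cells and cholangiocytes, the bile duct cells, were higher in NASH-fib. Of 14 portal fibroblast markers 13 were called higher (median log2 fold change 4.64), and their sum was 574, 284 and 648 in HSCs and 8304, 24044 and 26156 in NASH-fib. The exception, Gli1, was at 2.34, 1.46 and 4.78 in HSCs and 19.0, 51.7 and 37.4 in NASH-fib (log2 fold change 3.24, limma adjusted p = 0.089). All 10 mesothelial markers tested were higher (median 4.83), with sums of 1101, 698 and 912 in HSCs and 28673, 28917 and 35393 in NASH-fib. Gpm6a alone made up 411, 447 and 299 of these sums in HSCs and 21261, 11014 and 13786 in NASH-fib. Of 11 cholangiocyte markers 9 were higher, with a median of 4.60 or, with genes at 0 in HSCs set to their bound, 4.46. Some genes are shared by these lists: Msln stands in the portal fibroblast and the mesothelial list, and Krt7 and Krt19 stand in both the mesothelial and the cholangiocyte list.

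Thy1, a surface protein of portal fibroblasts, was at 9.35, 0 and 7.17 in HSCs and 84.3, 415 and 223 in NASH-fib (log2 change 5.51, standard error 0.87, limma adjusted p = 0.0018). Upk3b, a mesothelial uroplakin, rose from 29.2, 10.2 and 64.6 in HSCs to 141, 965 and 806 in NASH-fib, with a log2 change of 4.10 ± 0.83 (standard error) and a limma adjusted p = 0.0075. Pkhd1, which encodes fibrocystin of the bile duct cilium, had no read in HSCs and was at 122, 36.5 and 93.4 in NASH-fib, at least 22.0-fold higher (limma adjusted p = 0.0016). None of these 3 genes overlapped between the groups. Epcam, the epithelial adhesion molecule, had 2 reads in all HSC libraries and 112 in NASH-fib, a ratio of 46.3 (95% exact counting interval 12.5 to 387). Cldn4, Cldn7 and Sctr, other epithelial markers of the cholangiocyte list that were too low to test, had values of at most 8.02 in any NASH-fib library. How much of the changes below came from such cells was not tested.

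Hepatocyte, lymphocyte and neutrophil markers were not called in limma with all libraries. None of 20 hepatocyte markers passed in either direction in limma, edgeR or DESeq2 (3 at an unadjusted limma p under 0.05, 1 of them higher). Without HSC replicate 2 and NASH-fib replicate 1, limma called 1 higher and 2 lower. With all libraries their sums overlapped, at 32179, 43187 and 71305 in HSCs and 44101, 14439.8 and 44663 in NASH-fib. Alb was at 9062, 14161 and 11657 in HSCs and 14897, 1788 and 7894 in NASH-fib, so both groups held hepatocyte RNA. None of 8 neutrophil markers was called with all libraries in limma (1 in edgeR and 2 in DESeq2, on recovered reads, and 5 at an unadjusted limma p under 0.05, all higher), although all had log2 fold changes above 0 (median 3.40). Without HSC replicate 2 and NASH-fib replicate 1, 7 of them were called higher. S100a8, a calcium-binding protein of neutrophils, was at 16.4, 281 and 14.3 in HSCs and 222, 1577 and 439 in NASH-fib. None of 6 lymphocyte markers was called by any of the 3 tools (1 higher at an unadjusted limma p under 0.05).

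**Figure D3:**
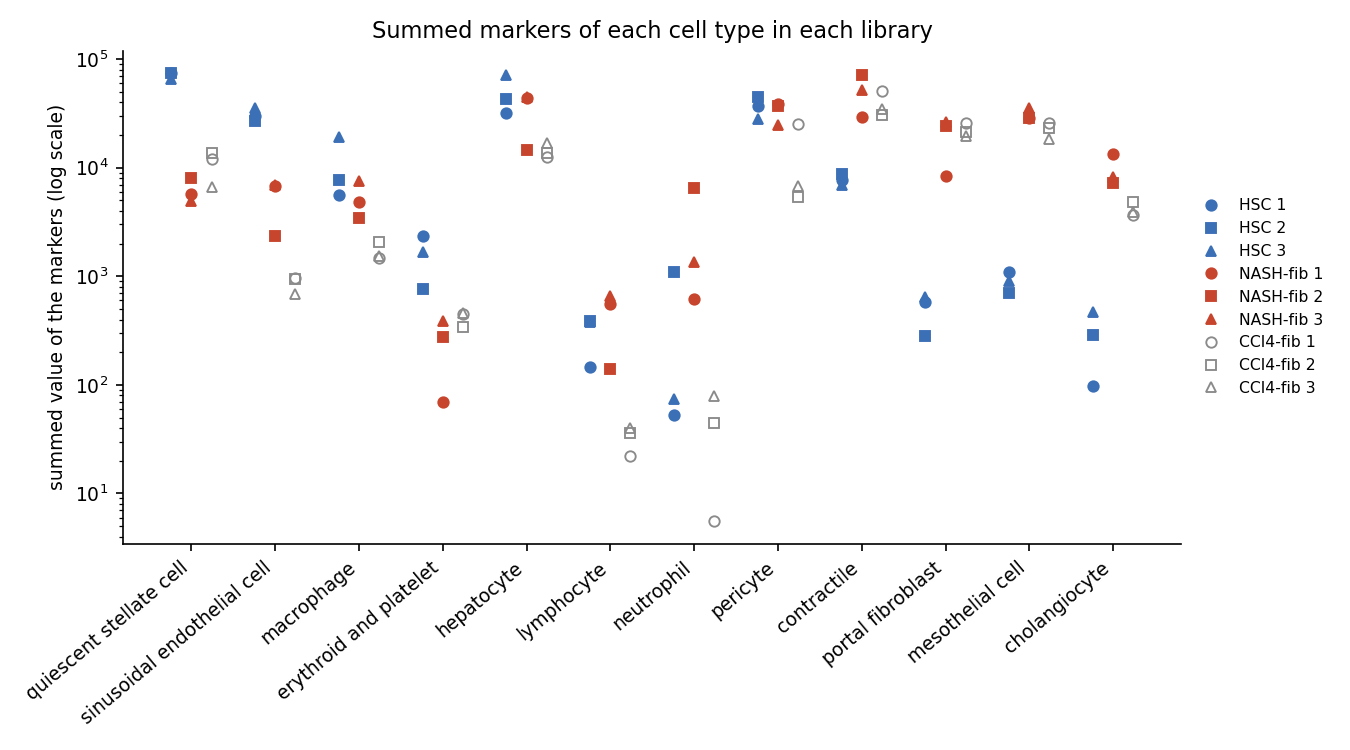
Summed value of the markers of each cell type in each library, on a log scale, with HSC libraries in blue, NASH-fib in red and CCl4-fib as open grey symbols. Quiescent stellate and sinusoidal endothelial markers are lower in all NASH-fib than in all HSC libraries, portal fibroblast, mesothelial and cholangiocyte markers are higher, and hepatocyte markers overlap. In NASH-fib, Gpm6a holds a large part of the mesothelial sum and Spp1 of the cholangiocyte sum.

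The genes with the largest rises encode enzymes and structural proteins of matrix, muscle proteins and a few regulators. Mmp3 (stromelysin 1; chromosome 9, 7445822 to 7455974 in mm10), a protease that cuts proteoglycans and activates other metalloproteinases, had values of 0, 10.2 and 0 in HSCs and 5917, 3148 and 3834 in NASH-fib, a log2 change of 10.86 (standard error 0.84, limma adjusted p = 3.5e-05). Aspn (asporin; chromosome 13, 49544443 to 49567562), a small leucine-rich proteoglycan that binds collagen, read 2.34, 0 and 10.8 in the HSC libraries and 7994, 3675 and 3002 in the NASH-fib libraries (log2 change 10.36, standard error 0.77, limma adjusted p = 3.1e-05). Scn7a (a sodium channel subunit; chromosome 2, 66673426 to 66784910) was at 3.51, 24.8 and 0 in HSCs and 2996, 1573 and 1548 in NASH-fib, with a log2 change of 8.64 ± 0.95 (standard error) and a limma adjusted p = 0.00021. All 3 NASH-fib libraries lay far above the HSC libraries, of which at least 1 was at 0 for each gene.

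For 5 of the 10 genes with the largest log2 change no HSC library had a read, and the fold is then a bound set by 3 reads per library. Casq2 (calsequestrin 2, which stores calcium in muscle; chromosome 3, 102086455 to 102146512) was at 1966, 1360 and 699 in NASH-fib, at least 351-fold higher than HSCs. Ebf1 (a transcription factor of B cells and of mesenchyme; chromosome 11, 44618100 to 45008096) was at 995, 704 and 619 in NASH-fib, at least 202-fold higher. Aoc3, the vascular adhesion protein of smooth muscle and vessels, was at 748, 845 and 289.9 in NASH-fib, at least 164-fold higher. Cilp, a matrix protein of cartilage and fibrotic tissue, was at 257, 623 and 413 in NASH-fib and at least 113-fold higher, and the uncharacterised 3632451O06Rik was at 154, 602 and 714 in NASH-fib, at least 128-fold higher. Olfr558, an olfactory receptor also known from vascular muscle, and Lmod1 (leiomodin 1), which nucleates smooth muscle actin, had a single HSC read each, against 5403 and 3449 reads in NASH-fib, ratios of 4470 (95% exact counting interval 802 to 177000) and 2850 (95% exact counting interval 512 to 113000). The limma adjusted p of these 7 genes was highest for Lmod1, at 4.4e-05.

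Ranked by the difference in value per kb of exon, the largest rises were in Gpm6a, Spp1, Cav1, Ogn, C3, Myl9, Fmo2, Dpt, Mgp and S100a6. Gpm6a, a membrane glycoprotein of neurons and mesothelium, had a mean of 130.5 per kb in HSCs and 5192 per kb in NASH-fib. Cav1 (caveolin 1), which forms membrane caveolae, had a mean of 134 per kb in HSCs and 4164 per kb in NASH-fib. C3, the central component of complement, rose from 2818, 1921 and 3572 in HSCs to 13134, 24678 and 28306 in NASH-fib, a log2 change of 2.96 (standard error 0.39, limma adjusted p = 0.00057). Fmo2, a monooxygenase, had values of 247, 192 and 127 in HSCs and 14903, 7932 and 11744 in NASH-fib (log2 change 5.93, standard error 0.36, limma adjusted p = 1.1e-05). The NASH-fib libraries were above the HSC libraries in each of these genes. Their highest library held between 3.59 and 6.38 reads per exon base, although the counting is stated to keep at most 3 reads per position, and the effect of that limit on folds was not tested. Other genes named in the text that passed 3 reads per base in 1 library or more were Acta2, Alb, Clec4g, Col1a2, Col3a1, Colec10, Colec11, Dcn, Ecm1, Fcna, Fos, Gm2083, Hsd11b1, Mfap4, Mfap5, Msln, Mup2, Mup15, Rgs5, S100a8, Sparc, Timp1 and Wfdc17, with Gm2083 at 10.5 and Dcn at 8.75.

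The genes with the largest falls include signalling proteins and secreted lectins of quiescent HSCs. Hhip (chromosome 8, 79965851 to 80058008), which binds and inhibits Hedgehog ligands, read 1850.5, 2276 and 1840 in the HSC libraries and 8.16, 38.3 and 0 in the NASH-fib libraries, with a log2 change of -8.12 ± 1.06 (standard error) and a limma adjusted p = 0.00057. Fcna (ficolin A; chromosome 2, 25624667 to 25627974), a lectin that starts complement activation, was at 5249.9, 2111 and 9072 in HSCs and 14.9, 23.2 and 91.4 in NASH-fib, a log2 change of -7.14 (standard error 0.70, limma adjusted p = 0.0001). Disp2 (chromosome 2, 118779719 to 118795175), of the family that releases Hedgehog ligands, fell from 1139.8, 549 and 781 in HSCs to 4.08, 10.7 and 1.97 in NASH-fib (log2 change -7.14, standard error 0.69, limma adjusted p = 9.8e-05). Every HSC library was above every NASH-fib library for these 3 genes, and 1 NASH-fib library had no read of Hhip.

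Colec10 (chromosome 15, 54410774 to 54466358), a collectin that binds sugars on microbes, had values of 12536, 21263 and 7361 in HSCs and 767, 57.9 and 197 in NASH-fib, with a log2 change of -5.92 ± 0.89 (standard error) and a limma adjusted p = 0.0014. Lrrn3, a leucine-rich repeat protein of neurons, read 1211, 1799.8 and 859.6 in the HSC libraries and 66.6, 11.6 and 6.88 in the NASH-fib libraries, a log2 change of -6.03 (standard error 0.81, limma adjusted p = 0.0007). Ptprt, a receptor tyrosine phosphatase, was at 169.5, 229 and 115 in HSCs and 0, 0 and 17.7 in NASH-fib (log2 change -5.96, standard error 1.11, limma adjusted p = 0.0048). In NASH-fib only 1 library had reads of Ptprt, and no value of these genes reached that of the lowest HSC library. Egfem1 had 1 NASH-fib read against 568 in HSCs, a ratio of 687 (95% exact counting interval 123 to 27200), and 1700063D05Rik, Gm4265 and Sycp1 had none, at least 46.1-fold, 33.2-fold and 24.6-fold lower than in HSCs.

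By difference per kb, the largest falls were in Fcna, Hsd11b1, Wfdc17, Colec11, Clec4g, Colec10 and Ecm1. Mup2, Mup15 and Gm2083 of the major urinary protein family stood with them. Hsd11b1, which makes active glucocorticoid, fell from 7815, 6592 and 6061 in HSCs to 2371, 1783 and 1340.5 in NASH-fib, with a log2 change of -1.93 ± 0.38 (standard error) and a limma adjusted p = 0.0063. Wfdc17, a small protein of the whey acidic protein family, had values of 1189, 2350.2 and 1945 in HSCs and 411, 97.1 and 466 in NASH-fib, a log2 change of -2.72 (standard error 0.57, limma adjusted p = 0.0094). The groups did not overlap for either gene. Major urinary proteins are products of hepatocytes encoded by near-identical copies whose reads are shared, so their values are uncertain one by one. Mup2 lost its call when HSC replicate 1, 2 or 3 or NASH-fib replicate 2 or 3 was left out (log2 fold change -2.80 without NASH-fib replicate 2), and Gm2083 without HSC replicate 1, 2 or 3 or NASH-fib replicate 2. Clec4g was not called without HSC replicate 1 (-2.40), HSC replicate 3 (-2.17) or NASH-fib replicate 2 (-2.24), and Ecm1 without HSC replicate 1 (-3.25) or HSC replicate 3 (-3.11).

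Most of the genes that define quiescent HSCs fell together. Lrat, which esterifies retinol for storage, read 10234, 14894 and 7070.5 in the HSC libraries and 458, 200.4 and 189 in the NASH-fib libraries (log2 change -5.30, standard error 0.53, limma adjusted p = 0.00013). Reln (reelin), a secreted glycoprotein, was at 9782, 7669.6 and 11068 in HSCs and 377, 225 and 200.5 in NASH-fib, with a log2 change of -5.19 ± 0.40 (standard error) and a limma adjusted p = 3.4e-05. Lhx2, a homeobox factor known to hold HSCs quiescent, fell from 516, 1239 and 393 in HSCs to 27.2, 24.1 and 7.86 in NASH-fib, a log2 change of -5.10 (standard error 0.63, limma adjusted p = 0.00041). The lowest HSC library was above the highest NASH-fib library for all 3 genes.

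Receptors and secreted proteins of the same cells followed. Vipr1, a receptor of vasoactive intestinal peptide, had values of 3887, 1523 and 3222 in HSCs and 61.2, 57.9 and 62.9 in NASH-fib (log2 change -5.44, standard error 0.87, limma adjusted p = 0.002). Angptl6, a secreted angiopoietin-like protein, read 707, 453 and 794 in the HSC libraries and 34.0, 13.4 and 39.3 in the NASH-fib libraries, with a log2 change of -4.54 ± 0.48 (standard error) and a limma adjusted p = 0.00017, with 16.8% of its exon bases in an overlapping gene. Pth1r, the parathyroid hormone receptor, was at 615, 226 and 344 in HSCs and 28.6, 40.1 and 11.8 in NASH-fib, a log2 change of -3.87 (standard error 0.58, limma adjusted p = 0.0014). None of the 3 overlapped between groups. Hgf, the growth factor of hepatocytes, fell from 7688, 4866 and 4418 in HSCs to 734, 429 and 299.8 in NASH-fib (log2 change -3.59, standard error 0.39, limma adjusted p = 0.00019). Colec11, the partner collectin of Colec10, had values of 5032, 2395 and 7751 in HSCs and 285, 1088 and 346 in NASH-fib, with a log2 change of -3.25 ± 0.58 (standard error) and a limma adjusted p = 0.0037. The factors Tcf21 and Hand2 fell by less, with log2 fold changes of -3.01 and -2.08, and 19.6% of the exon bases of Hand2 overlap an antisense gene. Of the 4 tested members that were not called, Gata4 was at 763, 539 and 473 in HSCs and 239, 502 and 254 in NASH-fib and Pparg, a nuclear receptor of fat storage, was at 26.9, 11.7 and 45.4 in HSCs and 24.5, 9.8 and 33.4 in NASH-fib, low in both groups.

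Genes that handle retinoids fell in part. Of 22 tested, 5 were lower, 1 was higher and 16 were not called, with a median log2 fold change of -1.10. These are 22.7% lower and 4.55% higher, against 4.3% and 8.23% of all genes. Bco1, which splits beta-carotene into retinal, read 1912, 1255 and 1346 in the HSC libraries and 68.0, 7.13 and 35.4 in the NASH-fib libraries, a log2 change of -5.76 (standard error 0.70, limma adjusted p = 0.00038). Cyp26b1, which breaks down retinoic acid, was at 448, 671 and 337 in HSCs and 62.5, 27.6 and 45.2 in NASH-fib (log2 change -3.42, standard error 0.45, limma adjusted p = 0.00061). Of the enzymes that make retinoic acid from retinal, Aldh1a3 fell, at 182, 186 and 221 in HSCs and 4.08, 19.6 and 19.7 in NASH-fib (log2 fold change -3.93, limma adjusted p = 0.00081). Aldh1a2, of the same family, rose, at 11.7, 1.46 and 9.56 in HSCs and 106.0, 151 and 150.4 in NASH-fib (log2 fold change 4.29, limma adjusted p = 0.0009). Aldh1a1 was at 3399, 4415 and 3907 in HSCs and 5363, 2302 and 3146 in NASH-fib, with overlapping groups.

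Rarb, the retinoic acid receptor beta, which is itself induced by retinoic acid, fell from 325, 399 and 238 in HSCs to 80.2, 65.9 and 81.6 in NASH-fib, with a log2 change of -2.04 ± 0.40 (standard error) and a limma adjusted p = 0.0061. All HSC values were above all NASH-fib values. Of its exon bases, 38.4% overlap the gene Top2b, and reads of both strands were counted. Promoters matched by symbol for 20 of the 25 genes of the retinoid list. Of the 5 called ones among them, Rarb alone held a direct repeat of the retinoic acid response element with a spacer of 5 bases (DR5), searched on both strands from 250 bases before to 50 after the start. Of the 20 matched genes, 2 held it, so a gene of the list that was not called held it too. Of all 27025 genes with such promoters, 31 held this motif (0.115%). The match is a description of the sequence and no test of binding. Its promoter (RefSeq, GRCm38.p6, chr14:16575427-16575726, minus strand) is shown because the motif lies 53 bases before the start, in capitals:
Rarb: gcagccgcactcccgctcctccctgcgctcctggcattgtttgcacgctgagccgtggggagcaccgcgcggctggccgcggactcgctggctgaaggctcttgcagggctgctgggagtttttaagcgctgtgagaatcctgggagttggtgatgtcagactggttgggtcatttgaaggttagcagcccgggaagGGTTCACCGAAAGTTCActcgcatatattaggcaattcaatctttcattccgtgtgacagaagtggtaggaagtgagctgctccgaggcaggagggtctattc

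Genes of smooth muscle contraction rose widely, with a median log2 fold change of 4.44. Of 23 tested, 17 were higher, none was lower and 6 were not called, and without HSC replicate 2 and NASH-fib replicate 1 20 were higher. Acta2, the smooth muscle alpha-actin by which myofibroblasts are stained, had values of 93.5, 40.8 and 74.1 in HSCs and 5300.2, 8983 and 8846 in NASH-fib, a log2 change of 6.81 (standard error 0.38, limma adjusted p = 1.1e-05). Actg2, the gamma form of smooth muscle actin, read 4.68, 1.46 and 1.2 in the HSC libraries and 277, 2855 and 1612 in the NASH-fib libraries (log2 change 8.44, standard error 0.78, limma adjusted p = 7.7e-05). Myh11, the smooth muscle myosin heavy chain, was at 125, 68.4 and 72.9 in HSCs and 2410.2, 13649 and 7507 in NASH-fib, with a log2 change of 6.18 ± 0.76 (standard error) and a limma adjusted p = 0.00041. For these 3 genes NASH-fib replicate 1 was the lowest NASH-fib library, and it was still above all HSC libraries. Kcnmb1, a subunit of a calcium-gated potassium channel, was at 11.7, 0 and 0 in HSCs and 326, 1134 and 562 in NASH-fib (log2 fold change 7.99, limma adjusted p = 0.00043). Myocd (myocardin), the coactivator of smooth muscle genes, had 1 HSC read and was at 211, 297 and 137 in NASH-fib, a ratio of 519 (95% exact counting interval 92.9 to 20500).

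Pln (phospholamban), which regulates the calcium pump of muscle, was at 1.17, 13.1 and 10.8 in HSCs and 483, 1402 and 1469 in NASH-fib (log2 fold change 7.13, limma adjusted p = 0.00015), with 65% of its exon bases in an overlapping gene. Cnn1 (calponin) had 2 HSC reads and was at 17.7, 367 and 146 in NASH-fib, a ratio of 237 (95% exact counting interval 65.4 to 1960). Members that HSCs also carried rose less or were not called. Tpm2, a tropomyosin, rose from 166, 72.8 and 438 in HSCs to 643, 5029 and 3985 in NASH-fib, a log2 change of 3.74 (standard error 0.79, limma adjusted p = 0.01). Mylk, the myosin light chain kinase, was at 2478, 3674 and 1903 in HSCs and 3876, 5488 and 2570.1 in NASH-fib, and Cald1, caldesmon, at 2511, 4176 and 2186 in HSCs and 7254, 6772 and 4847 in NASH-fib, and neither was called. Of the 16 pericyte markers, which vascular muscle shares in part, 6 were higher and 2 lower. Notch3, a receptor of mural cells, had values of 54.9, 2.91 and 15.5 in HSCs and 405, 1625 and 428 in NASH-fib (log2 change 5.42, standard error 0.96, limma adjusted p = 0.0035). Higd1b read 0, 0 and 5.98 in the HSC libraries and 476, 1182 and 473 in the NASH-fib libraries, with a log2 change of 8.40 ± 0.95 (standard error) and a limma adjusted p = 0.00025. Their NASH-fib values were above all HSC values. The potassium channel pair Kcnj8 and Abcc9 went the other way, with Abcc9 at 12493, 13106 and 9896 in HSCs and 1208, 1424 and 1020.2 in NASH-fib, a log2 change of -3.28 (standard error 0.35, limma adjusted p = 0.00018). Rgs5, a regulator of G protein signalling in pericytes, was among the highest genes of both groups, at 19975, 27511 and 14708 in HSCs and 29830, 20211 and 15987 in NASH-fib. The part of vessel wall cells in the contractile genes was not tested.

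Promoters of contractile genes were searched for the CArG box, the binding motif of serum response factor. Of the 24 members, 20 matched a promoter by symbol. Of the 13 called ones among these, 2 held the box, against 488 of all 27025 genes with promoters (1.81%). Myl9, the regulatory light chain of smooth muscle myosin, was at 544, 46.6 and 697 in HSCs and 937, 6123 and 6007 in NASH-fib (log2 fold change 3.63, limma adjusted p = 0.036), and its call was lost without HSC replicate 2 (log2 fold change 2.40), NASH-fib replicate 2 (3.18), NASH-fib replicate 3 (3.19) or any 1 CCl4-fib library (3.63). Ldb3, a protein of the muscle Z disc, had 1 HSC read and was at 152, 244 and 145 in NASH-fib, a ratio of 442 (95% exact counting interval 78.9 to 17500). Both promoters are shown 5′ to 3′ with the box in capitals, from RefSeq (GRCm38.p6). The other 11 lack these letters in this window, which says nothing more. Ldb3 has another start, from which the same box lies 109 bases upstream, and the promoter of that start is not shown. The promoter of Myl9 (chr2:156775214-156775513, plus strand) holds the box 161 bases before the start, and that of Ldb3 (chr14:34588632-34588931, minus strand) 35 bases before it:
Myl9: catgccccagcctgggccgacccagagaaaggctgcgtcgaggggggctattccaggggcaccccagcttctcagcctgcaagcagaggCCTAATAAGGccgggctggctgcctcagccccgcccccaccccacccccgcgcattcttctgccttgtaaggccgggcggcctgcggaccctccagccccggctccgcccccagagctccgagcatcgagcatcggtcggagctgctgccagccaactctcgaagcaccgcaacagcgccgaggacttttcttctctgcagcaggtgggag
Ldb3: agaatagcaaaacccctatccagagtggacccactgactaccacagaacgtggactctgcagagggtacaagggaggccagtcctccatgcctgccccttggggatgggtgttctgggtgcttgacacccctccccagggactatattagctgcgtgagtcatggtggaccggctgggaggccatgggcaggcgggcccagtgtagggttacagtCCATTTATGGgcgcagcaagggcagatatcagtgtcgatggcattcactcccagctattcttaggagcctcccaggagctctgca

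**Figure D4:**
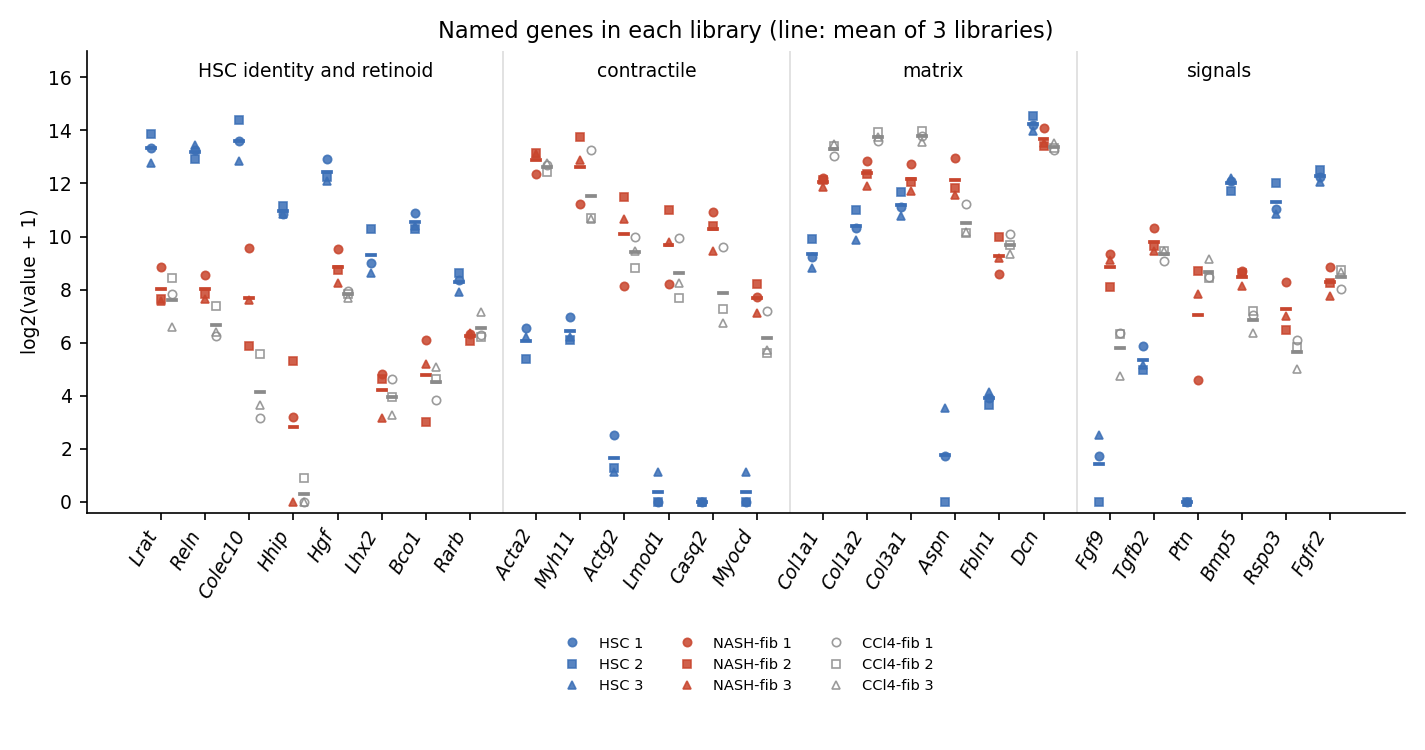
Log2(value + 1) of named genes in each library, with HSC in blue, NASH-fib in red and CCl4-fib in open grey; the symbol gives the replicate and the line the mean of 3 libraries. HSC genes such as Lrat and Hhip sit high in blue and low in red, contractile genes the reverse, and Dcn overlaps between HSC and NASH-fib.

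Collagens did not move as one. Of 9 fibrillar collagen genes tested, 4 were higher and 2 lower, the latter count being 1 without HSC replicate 1 or 2 or NASH-fib replicate 2 or 3. Col1a1, the alpha 1 chain of type I collagen, was at 599.7, 968 and 452 in HSCs and 4729, 4498 and 3738 in NASH-fib, a log2 change of 2.75 (standard error 0.35, limma adjusted p = 0.00048). Col5a2, a chain of type V collagen, rose from 178, 285 and 176 in HSCs to 1153, 981 and 772 in NASH-fib (log2 change 2.20, standard error 0.33, limma adjusted p = 0.0014). All NASH-fib libraries exceeded all HSC libraries for both. Col3a1, of type III collagen, was at 2192, 3311 and 1766 in HSCs and 6882, 4280.4 and 3404 in NASH-fib, with no overlap but no call (log2 fold change 0.99, limma adjusted p = 0.13). Col24a1 fell, at 77.2, 94.7 and 152 in HSCs and 4.08, 8.02 and 0 in NASH-fib (log2 fold change -4.87, limma adjusted p = 0.0028). Col5a1, the partner chain of Col5a2, was at 392, 366 and 326 in HSCs and 148, 152 and 133 in NASH-fib (log2 fold change -1.32, limma adjusted p = 0.024), a call lost without HSC replicate 1 or 2 or NASH-fib replicate 2 or 3, with log2 fold changes of -1.26 to -1.36. Col11a1 had 1 HSC read and was at 46.2, 16.9 and 32.4 in NASH-fib, a ratio of 71.1 (95% exact counting interval 12.4 to 2840).

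Of 17 collagens of other classes, 9 were higher and none lower, with a median of 2.36, or 1.96 with genes at 0 in HSCs set to their bound. Col12a1, which decorates fibrils, had 3 HSC reads in all and was at 277, 233 and 117 in NASH-fib, a ratio of 161 (95% exact counting interval 54.9 to 784). Col6a5 had values of 4.68, 1.46 and 8.37 in HSCs and 313, 403 and 313 in NASH-fib, with a log2 change of 6.07 ± 0.47 (standard error) and a limma adjusted p = 3.5e-05. Col15a1, a basement membrane zone collagen also used as a portal fibroblast marker, read 3.51, 18.9 and 4.78 in the HSC libraries and 116, 187 and 135 in the NASH-fib libraries, a log2 change of 4.16 (standard error 0.57, limma adjusted p = 0.00075). Neither of the last 2 overlapped between groups.

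Basement membrane chains moved in both directions. Of 20 genes tested, 8 were higher and 2 lower. Col4a6 and Col4a5, the chains of type IV collagen found around smooth muscle, rose, with Col4a6 at 11.7, 13.1 and 3.59 in HSCs and 598, 556 and 340.1 in NASH-fib, a log2 change of 5.69 (standard error 0.48, limma adjusted p = 4.6e-05). Lama1, a laminin alpha chain, was at 673, 229 and 768 in HSCs and 4.08, 16.0 and 18.7 in NASH-fib (log2 change -5.36, standard error 0.75, limma adjusted p = 0.00088). Lamb1, a laminin beta chain, fell from 1547, 1771 and 1791 in HSCs to 425, 372 and 341 in NASH-fib, with a log2 change of -2.17 ± 0.28 (standard error) and a limma adjusted p = 0.00054. Both laminin falls left the groups without overlap.

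Proteoglycans and elastic fibre genes rose widely. Of 16 proteoglycan and hyaluronan genes, 10 were higher and none lower (median 3.24, or 3.06 with bounds). Tnfaip6, which modifies hyaluronan, had values of 3.51, 5.82 and 0 in HSCs and 387, 488 and 439 in NASH-fib, a log2 change of 7.12 (standard error 0.63, limma adjusted p = 6.1e-05). Fmod (fibromodulin), which shapes collagen fibrils, read 80.7, 4.37 and 47.8 in the HSC libraries and 556, 1971 and 1959.7 in the NASH-fib libraries (log2 change 5.54, standard error 0.88, limma adjusted p = 0.0019). Dcn (decorin), the most abundant proteoglycan of these cells, was at 18795, 23916 and 16291 in HSCs and 17452, 10761 and 11914 in NASH-fib, and the groups overlapped. Of 18 microfibril and elastic fibre genes, 10 were higher and none lower. Mfap4, a protein of the microfibril, was at 1.17, 8.74 and 2.39 in HSCs and 205, 4076 and 2129 in NASH-fib, with a log2 change of 8.19 ± 0.94 (standard error) and a limma adjusted p = 0.00027. Mfap5 rose from 23.4, 7.28 and 20.3 in HSCs to 2054, 2251 and 3416 in NASH-fib, a log2 change of 7.27 (standard error 0.44, limma adjusted p = 1.1e-05). Fbn2 (fibrillin 2) had no HSC read and was at 68.0, 119 and 53.1 in NASH-fib, at least 21.0-fold higher. The portal fibroblast marker list, which shares Mfap4, Fbln2 and Eln with the elastic list, rose beside these genes.

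Of 20 matricellular genes, whose products signal from the matrix, 9 were higher and 2 lower. The lower count fell to 0 without HSC replicate 1 or 2 or NASH-fib replicate 2 or 3, and to 1 without HSC replicate 3 or CCl4-fib replicate 2. Ibsp, a sialoprotein of bone, had no HSC read and was at 300.4, 344 and 285 in NASH-fib, at least 81.1-fold higher (limma adjusted p = 0.00033). Spp1 (osteopontin) had values of 32.7, 156 and 159 in HSCs and 10729, 4847 and 5255 in NASH-fib (log2 change 6.10, standard error 0.62, limma adjusted p = 0.00014), with 18.8% of its exon bases in an overlapping gene. Mgp, which keeps soft tissue free of mineral, read 42.1, 39.3 and 64.6 in the HSC libraries and 506, 2788 and 2479.6 in the NASH-fib libraries, with a log2 change of 4.97 ± 0.58 (standard error) and a limma adjusted p = 0.00029. Sparc, which binds collagen, was at 9798, 6767 and 11162 in HSCs and 9094, 10719 and 9849 in NASH-fib, with overlapping groups. The cholangiocyte markers, among which Spp1 stands, rose beside it.

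Matrix proteases and their inhibitors rose where they moved. Of 18 tested, 8 were higher and none lower, and without HSC replicate 2 and NASH-fib replicate 1 the higher count was 12. Timp1, the metalloproteinase inhibitor, was at 71.3, 5.82 and 63.4 in HSCs and 742, 2563 and 2295 in NASH-fib, a log2 change of 5.69 (standard error 0.83, limma adjusted p = 0.0011). Mmp13, the collagenase of rodents, rose from 11.7, 40.8 and 0 in HSCs to 569.6, 471 and 179 in NASH-fib (log2 change 5.49, standard error 1.20, limma adjusted p = 0.012). Mmp10 had no HSC read and was at 220.2, 82.8 and 135 in NASH-fib, at least 38.2-fold higher. Mmp7, the epithelial matrilysin, had no HSC read and was at 74.8, 45.4 and 51.1 in NASH-fib, at least 14.9-fold higher. Of 23 genes that process and cross-link collagen, 4 were higher and 1 lower (8.23% and 4.3% of all genes), and the higher count was 1 without HSC replicate 1 or NASH-fib replicate 2 and 2 without HSC replicate 3. The lower one, Loxl4, was lost without HSC replicate 1 or 3, NASH-fib replicate 1, 2 or 3 or CCl4-fib replicate 1 (lowest in size -1.89, without HSC replicate 1), and the lower count was 2 without HSC replicate 2 and 3 without both HSC replicate 2 and NASH-fib replicate 1. Lox (lysyl oxidase), which starts cross-linking, had values of 0, 42.2 and 4.78 in HSCs and 605, 399 and 277 in NASH-fib, with a log2 change of 6.01 ± 1.05 (standard error) and a limma adjusted p = 0.0033.

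Ligands of the transforming growth factor family moved in both directions. Of 37 genes of this pathway, 11 were higher and 7 lower. Tgfb2 read 58.5, 30.6 and 34.7 in the HSC libraries and 1266, 799.8 and 701 in the NASH-fib libraries, a log2 change of 4.46 (standard error 0.38, limma adjusted p = 4.7e-05). Tgfb3 was at 44.4, 5.82 and 45.4 in HSCs and 250.1, 1137 and 1209.8 in NASH-fib (log2 change 4.85, standard error 0.78, limma adjusted p = 0.002). Both ligands were above all HSC libraries in all 3 NASH-fib libraries. The bone morphogenetic proteins that quiescent HSCs make fell. Gdf2 (BMP9), which acts on endothelium, fell from 3886, 2231 and 4977 in HSCs to 171, 221 and 301 in NASH-fib, with a log2 change of -3.96 ± 0.50 (standard error) and a limma adjusted p = 0.00046. Bmp10, its close relative, had values of 185, 62.6 and 208 in HSCs and 2.72, 0.89 and 5.9 in NASH-fib, a log2 change of -5.21 (standard error 0.90, limma adjusted p = 0.003). Bmp5 read 4359, 3406 and 4706 in the HSC libraries and 420.0, 390.1 and 284 in the NASH-fib libraries (log2 change -3.51, standard error 0.34, limma adjusted p = 0.0001), with 47% of its exon bases in an overlapping gene. Each of these 3 fell below every HSC library. The secreted antagonist Fst (follistatin) was at 12.9, 1.46 and 1.2 in HSCs and 272, 188 and 391 in NASH-fib, with a log2 change of 6.01 ± 0.71 (standard error) and a limma adjusted p = 0.0003.

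Growth factors and their receptors moved both ways. Of 37 genes, 16 were higher and 3 lower (43.2% and 8.11%), against 8.23% and 4.3% of all genes. Fgf9 (chromosome 14, 58072686 to 58112720), a fibroblast growth factor, rose from 2.34, 0 and 4.78 in HSCs to 652, 269.9 and 560.2 in NASH-fib, a log2 change of 7.43 (standard error 0.73, limma adjusted p = 0.00011). Fgf7, which acts on epithelium, had values of 1.17, 26.2 and 10.8 in HSCs and 462, 227 and 249.6 in NASH-fib (log2 change 5.07, standard error 0.88, limma adjusted p = 0.0032). Fgf10, its relative, had no HSC read and was at 58.5, 30.3 and 57.0 in NASH-fib, at least 12.7-fold higher. Ptn (pleiotrophin) had no HSC read and was at 23.1, 411 and 228 in NASH-fib, at least 57.8-fold higher, with NASH-fib replicate 1 far below the other 2. Bdnf, a neurotrophin, read 2.34, 13.1 and 0 in the HSC libraries and 582, 212 and 222 in the NASH-fib libraries, with a log2 change of 6.39 ± 0.94 (standard error) and a limma adjusted p = 0.0012. Figf, the lymphatic growth factor VEGF-D, was at 9.35, 18.9 and 20.3 in HSCs and 469, 364 and 508 in NASH-fib, a log2 change of 4.76 (standard error 0.39, limma adjusted p = 4.3e-05). On the lower side with Hgf stood Fgfr2, a receptor for several of these ligands, at 4819, 5889 and 4298 in HSCs and 464, 300.1 and 214 in NASH-fib, a log2 change of -3.99 (standard error 0.37, limma adjusted p = 7.9e-05). Its NASH-fib values were all below its HSC values.

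Wnt signalling genes changed in both directions, with 10 of 18 higher and 4 lower (median 2.83, or 2.06 with bounds). Sfrp1, a secreted Wnt inhibitor, rose from 10.5, 2.91 and 13.2 in HSCs to 511, 1478 and 1655 in NASH-fib (log2 change 6.97, standard error 0.59, limma adjusted p = 4.9e-05). Dkk2, another, had no HSC read and was at 53.0, 54.3 and 102.2 in NASH-fib, at least 18.3-fold higher. Rspo1 and Rspo3, which strengthen Wnt signals, went opposite ways. Rspo1 had values of 35.1, 13.1 and 15.5 in HSCs and 575, 436 and 383 in NASH-fib, with a log2 change of 4.50 ± 0.44 (standard error) and a limma adjusted p = 0.0001. Rspo3 read 2086, 4156 and 1866 in the HSC libraries and 309.9, 88.2 and 128 in the NASH-fib libraries, a log2 change of -4.05 (standard error 0.53, limma adjusted p = 0.00058). In Hedgehog signalling 5 of 12 genes were higher and 2 lower. Beside Hhip, the ligand gene Dhh fell to no read in NASH-fib, at least 6.41-fold lower than in HSCs, where it was at 11.7, 35.0 and 15.5, and 38% of its exon bases overlap another gene. The coreceptor Cdon was at 76.0, 78.6 and 49.0 in HSCs and 544, 543 and 500.2 in NASH-fib (log2 change 2.97, standard error 0.34, limma adjusted p = 0.00025), and Gas1, another, at 469.9, 702 and 312 in HSCs and 4475, 1935 and 2033 in NASH-fib, a log2 change of 2.47 (standard error 0.41, limma adjusted p = 0.0026), with 19.9% of its exon bases in an overlapping gene. In both the groups were apart. Of 11 Notch genes 1 was higher (Notch3) and 1 lower (Notch1), 9.09% each, against 8.23% higher and 4.3% lower of all genes. The call of Notch1 was lost without HSC replicate 1 or 3 or NASH-fib replicate 1 or 3, with log2 fold changes of -1.69 to -2.18. The lower count was 2 without both HSC replicate 2 and NASH-fib replicate 1. Without CCl4-fib replicate 1 the higher count was 2.

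Of 30 transcription factors of mesenchyme, 10 were higher and 4 lower (33.3% and 13.3%), against 8.23% and 4.3% of all genes. Ebf2, the relative of Ebf1, had no HSC read and was at 295, 256 and 341 in NASH-fib, at least 77.8-fold higher. Prrx1, a homeobox factor of limb and fibroblast development, rose from 5.84, 11.7 and 13.2 in HSCs to 617, 428 and 219 in NASH-fib, with a log2 change of 5.18 ± 0.47 (standard error) and a limma adjusted p = 7.5e-05. Meox2 had no HSC read and was at 21.8, 41.0 and 44.2 in NASH-fib, at least 9.33-fold higher. Wt1, a factor of mesothelium, had values of 43.2, 61.2 and 41.8 in HSCs and 466, 379 and 396 in NASH-fib, a log2 change of 3.08 (standard error 0.36, limma adjusted p = 0.00031). The lower factors, Lhx2, Tcf21, Hand2 and Tbx20, are ones that HSCs carried. Lhx2, Tcf21 and Hand2 also stand in the list of quiescent HSC markers. Tbx20 lost its call without CCl4-fib replicate 2 (-1.56), HSC replicate 1 (-1.50), HSC replicate 2 (-1.38), NASH-fib replicate 2 (-1.64) or NASH-fib replicate 3 (-1.25).

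Surface and guidance proteins also moved in both directions. Of 25 integrins and cadherins, 9 were higher and 5 lower. Cdh11, the cadherin of mesenchyme, read 16.4, 10.2 and 17.9 in the HSC libraries and 661, 256 and 345 in the NASH-fib libraries (log2 change 4.65, standard error 0.44, limma adjusted p = 9.5e-05). Cdh2 (N-cadherin) was at 950.4, 1111 and 796 in HSCs and 182, 132 and 99.3 in NASH-fib, with a log2 change of -2.81 ± 0.44 (standard error) and a limma adjusted p = 0.0016. These 2 cadherins thus changed in opposite directions, each without overlap. Itga11, which binds collagen, had 1 HSC read and was at 21.8, 102.4 and 79.6 in NASH-fib, a ratio of 175 (95% exact counting interval 31.1 to 6960). Of 31 neural genes, 12 were higher and 7 lower. Opcml, a cell adhesion molecule, had no HSC read and was at 341, 127 and 238 in NASH-fib, at least 61.6-fold higher. Penk, which encodes enkephalin, rose from 1.17, 2.91 and 3.59 in HSCs to 415, 529 and 510.1 in NASH-fib, a log2 change of 7.15 (standard error 0.77, limma adjusted p = 0.00019). Sema3c, a guidance cue, had values of 101.7, 99.0 and 27.5 in HSCs and 2757, 1740.3 and 2116 in NASH-fib (log2 change 5.03, standard error 0.52, limma adjusted p = 0.00014). The groups did not overlap for Penk or Sema3c.

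Receptors for vasoactive signals fell more often than they rose, with 7 lower and 4 higher of 21, and the higher count was 2 without NASH-fib replicate 2. Npy1r, a receptor of neuropeptide Y, read 5.84, 11.7 and 0 in the HSC libraries and 1357, 1107 and 1146 in the NASH-fib libraries, with a log2 change of 8.08 ± 0.85 (standard error) and a limma adjusted p = 0.00017. Ednrb, an endothelin receptor, was at 8222, 5038 and 6464 in HSCs and 1460, 1270 and 713 in NASH-fib, a log2 change of -2.55 (standard error 0.41, limma adjusted p = 0.002). Agtr1a, the angiotensin II receptor, fell from 2042, 2420.2 and 2941 in HSCs to 362, 525 and 296 in NASH-fib (log2 change -2.67, standard error 0.33, limma adjusted p = 0.00039). Ptger2, a prostaglandin E receptor, had values of 302, 475 and 307 in HSCs and 47.6, 48.1 and 31.4 in NASH-fib, with a log2 change of -3.05 ± 0.41 (standard error) and a limma adjusted p = 0.00071. All 4 separated the groups.

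Immediate-early genes, which answer stress and growth signals within minutes, rose together. Of 23 tested, 16 were higher and none lower (median 2.72). Fos read 107.5, 84.5 and 92.1 in the HSC libraries and 3399.8, 2729.8 and 2225 in the NASH-fib libraries, a log2 change of 4.85 (standard error 0.33, limma adjusted p = 1.7e-05). Nr4a1 was at 15.2, 11.7 and 15.5 in HSCs and 304, 634 and 451 in NASH-fib (log2 change 4.89, standard error 0.40, limma adjusted p = 4.3e-05). Atf3 rose from 54.9, 7.28 and 20.3 in HSCs to 203, 348 and 634 in NASH-fib, with a log2 change of 4.05 ± 0.77 (standard error) and a limma adjusted p = 0.0056. No NASH-fib library overlapped an HSC library in these 3 genes. Of these groups NASH-fib alone was sorted, and the part of the sort in these genes cannot be told apart from that of the disease.

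Of 30 complement and coagulation genes, 10 were higher and 2 lower (33.3% and 6.67%), against 8.23% and 4.3% of all genes. The lower count was 1 without HSC replicate 1, 2 or 3, NASH-fib replicate 2 or CCl4-fib replicate 1 or 2, and 4 without NASH-fib replicate 1. C7, of the membrane attack complex, had values of 100.5, 83.0 and 77.7 in HSCs and 1985, 4328 and 6614 in NASH-fib, a log2 change of 5.46 (standard error 0.64, limma adjusted p = 0.0003). C6, its partner, read 935, 917 and 1131 in the HSC libraries and 116, 106.9 and 143 in the NASH-fib libraries (log2 change -3.03, standard error 0.41, limma adjusted p = 0.00077). The 2 neighbours in that complex moved in opposite directions, each with the groups apart. Plat, the tissue plasminogen activator, was at 19.9, 20.4 and 65.8 in HSCs and 309.9, 1695 and 2836 in NASH-fib, with a log2 change of 5.21 ± 0.74 (standard error) and a limma adjusted p = 0.00096. F3, tissue factor, rose from 2.34, 8.74 and 5.98 in HSCs to 166, 187 and 279 in NASH-fib, a log2 change of 5.08 (standard error 0.61, limma adjusted p = 0.00035).

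Chemokine and interferon lists held calls in both directions. Of 27 chemokines and cytokines, 3 were higher and 3 lower, 11.1% each, against 8.23% and 4.3% of all genes. Their median log2 fold change was 1.09, and 20 of the 27 were above 0. Without HSC replicate 2 and NASH-fib replicate 1, 8 were higher (5 without either of them alone). Ccl11, which attracts eosinophils, had values of 67.8, 13.1 and 31.1 in HSCs and 1349.8, 929.8 and 1328 in NASH-fib (log2 change 5.24, standard error 0.74, limma adjusted p = 0.00097). Cxcl12, a retention signal for blood cells, read 5336, 6040.2 and 5051 in the HSC libraries and 1145, 1373 and 713 in the NASH-fib libraries, with a log2 change of -2.39 ± 0.34 (standard error) and a limma adjusted p = 0.001. In both, the groups did not overlap. Of 20 interferon-stimulated genes, 1 was higher, Gbp2 at 1467, 462 and 748 in HSCs and 3325, 3670.3 and 5032 in NASH-fib (log2 fold change 2.31, limma adjusted p = 0.0049), and 4 were lower, a count of 0 without HSC replicate 1, 1 without NASH-fib replicate 2 or 3, and 2 without HSC replicate 2 or 3 or CCl4-fib replicate 1 or 2. With all libraries 5% of the interferon list was higher and 20% lower, against 8.23% and 4.3% of all genes. The lower ones were Bst2, Ifih1, Ifit3 and Irf7. Its median log2 fold change was -0.94, with 3 of the 20 above 0. None of the 7 genes of MHC class II was called in limma, edgeR or DESeq2, and 0 had an unadjusted limma p under 0.05.

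Metabolic and cell cycle lists gave few calls. Of 24 genes of fatty acid oxidation, 2 were higher and none lower, the count being 1 without HSC replicate 1 or NASH-fib replicate 2. Ppargc1a, a coactivator of mitochondrial genes, was at 0, 7.28 and 1.2 in HSCs and 78.8, 57.9 and 38.3 in NASH-fib, a log2 change of 4.44 (standard error 0.77, limma adjusted p = 0.0031). Of 23 genes of lipid synthesis and 16 of lipid droplets, 1 each was higher, Lss and Plin4. Lss lost its call without any 1 HSC library, NASH-fib replicate 2 or 3 or CCl4-fib replicate 2 (lowest log2 fold change 1.54, without NASH-fib replicate 3), and Plin4 without HSC replicate 1 or 2 or NASH-fib replicate 2 or 3 (lowest 2.92, without HSC replicate 2). Plin2, the coat protein of stellate and hepatocyte droplets, was at 5068, 1238 and 3963 in HSCs and 1408, 1922 and 4381 in NASH-fib, with overlapping groups. Of 26 cell cycle genes none was higher and 2 were lower, Mcm2 and Mcm3 of the replicative helicase, a count of 0 without HSC replicate 1 and 1 without HSC replicate 3, NASH-fib replicate 3 or CCl4-fib replicate 2 or 3. Without HSC replicate 2 and NASH-fib replicate 1, 2 genes of fatty acid oxidation were lower and 1 cell cycle gene was higher. With Lss or Plin4 lost, their lists held no call. The background for these counts is 8.23% higher and 4.3% lower.

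Many list counts were smaller with the leading number of the labels as a block, a fit that called 549 genes higher and 119 lower in all. In that fit HSC replicate 1, alone under its number, had no weight on the group difference. List counts that moved by over 1.5 times are given here, from the count above to the count with the block. Those of the quiescent HSC, endothelial and macrophage markers are given earlier. Fibrillar collagens went from 4 to 1 higher and from 2 to 0 lower, genes of collagen processing from 4 to 1 higher and 1 to 0 lower, and matricellular genes from 2 to 0 lower. In the transforming growth factor family the change was from 11 to 6 higher and from 7 to 4 lower, and in growth factors and receptors from 16 to 10 higher. Wnt genes went from 10 to 6 higher and 4 to 1 lower, Hedgehog genes from 5 to 3 higher and 2 to 1 lower, and Notch genes from 1 to 0 lower. Immediate-early genes went from 16 to 8 higher, and transcription factors of mesenchyme from 4 to 1 lower. Integrins and cadherins went from 9 to 4 higher and 5 to 2 lower, and vasoactive receptors from 4 to 2 higher and 7 to 2 lower. Complement and coagulation genes went from 10 to 5 higher and 2 to 1 lower, and chemokines and cytokines from 3 to 1 in each direction. Interferon-stimulated genes went from 4 to 0 lower, cell cycle genes from 2 to 0 lower, fatty acid oxidation from 2 to 0 higher and lipid droplet genes from 1 to 0 higher. The counts of portal fibroblast, mesothelial, cholangiocyte, contractile, proteoglycan and elastic fibre genes stayed within 1.5 times.

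**Figure D5:**
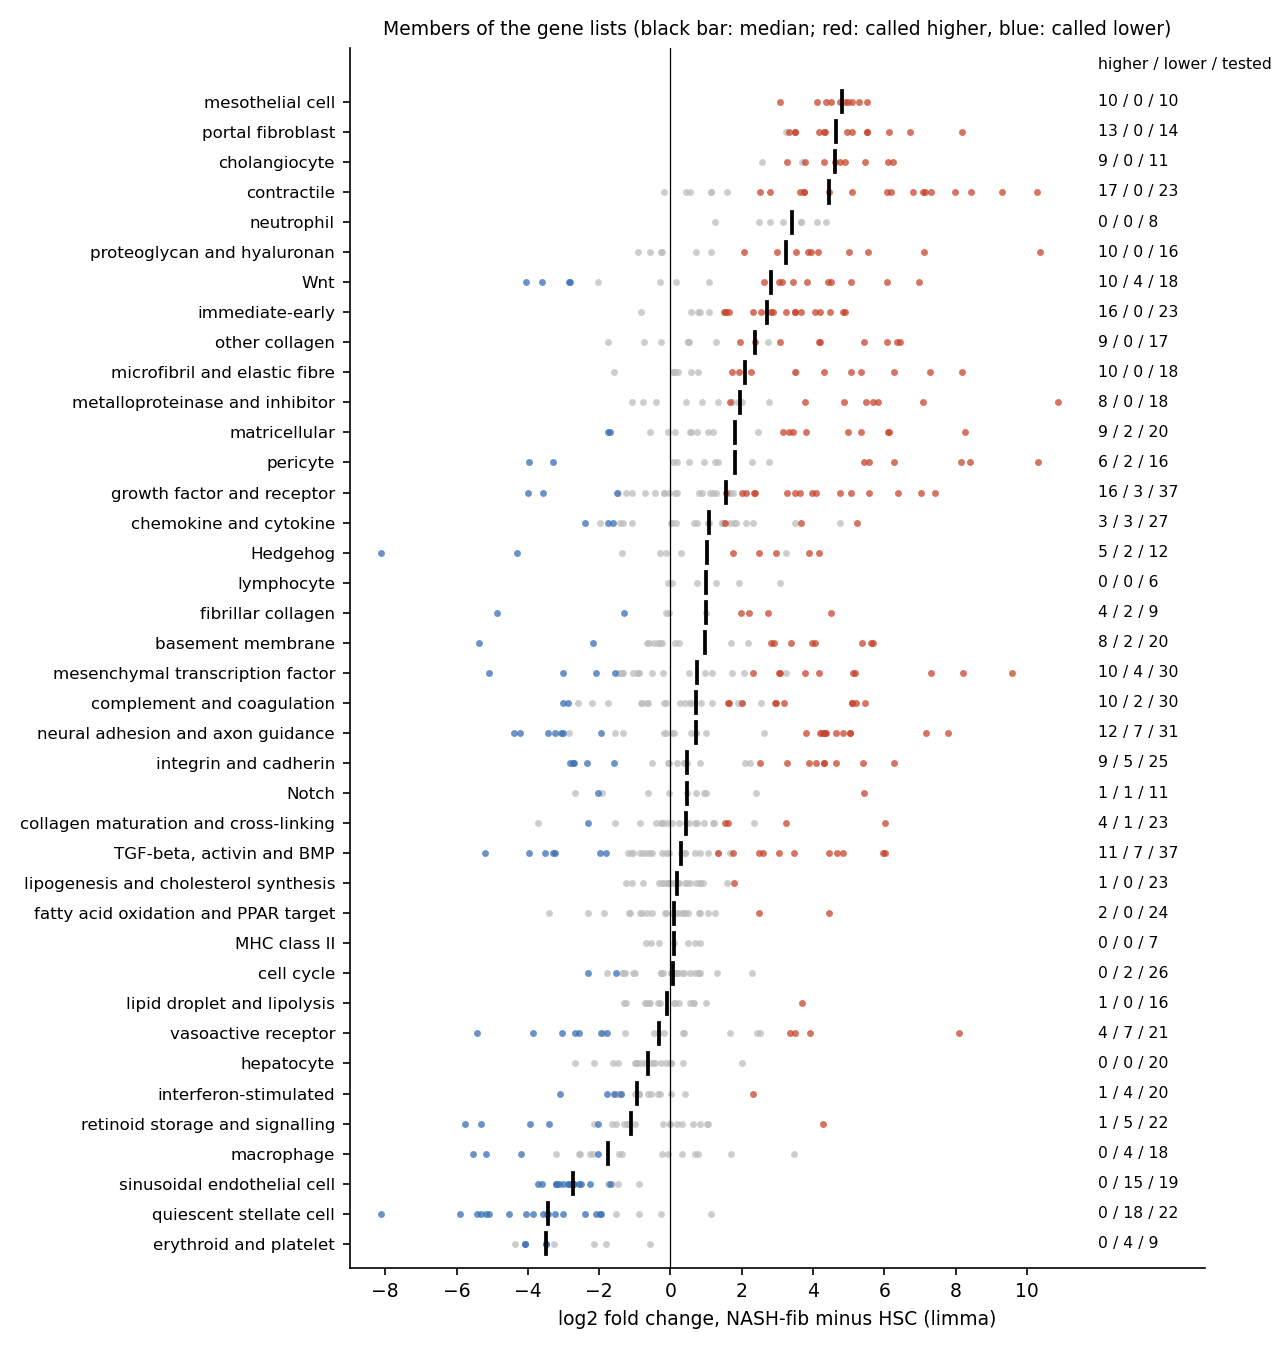
Log2 fold change (NASH-fib minus HSC, limma) of each tested member of each gene list, 1 row per list, ordered by the median (black bar); red members were called higher, blue lower and grey not called, with the counts at the right. Sinusoidal endothelial, quiescent stellate and red cell genes lie at the low end, and mesothelial, portal fibroblast, cholangiocyte and contractile genes at the high end, between medians of -3.48 and 4.83.

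CCl4-fib values are set beside these for the genes of the study. NASH-fib against CCl4-fib, which uses the same NASH-fib libraries, gave 678 genes higher (4.97%) and 773 lower (5.66%). Fgf9 was at 81.8, 80.0 and 25.8 in CCl4-fib (log2 fold change 3.04, limma adjusted p = 0.029). Col1a1 was at 8485, 11002 and 11375 in CCl4-fib (log2 fold change -1.25, limma adjusted p = 0.046). Acta2 was at 6692, 5464 and 6985 in CCl4-fib (log2 fold change 0.24, limma adjusted p = 0.7). In this order CCl4-fib lay between HSCs and NASH-fib for Fgf9, above both for Col1a1, and overlapped NASH-fib for Acta2. Hhip was at 0, 0.85 and 0 in CCl4-fib (log2 fold change 2.53, limma adjusted p = 0.14), and Ecm1 at 3713, 4224 and 985 in CCl4-fib, against 6128, 2060.5 and 7480.5 in HSCs and 124, 958 and 582 in NASH-fib, a difference from NASH-fib that was not called (log2 fold change -2.60, limma adjusted p = 0.068). Without NASH-fib replicate 1 or 3 or any 1 CCl4-fib library the counts of this comparison fell to between 113 and 337 higher and 72 and 398 lower.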

How the data were processed

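RNA was measured in 9 libraries, 3 each of HSCs, NASH-fib and CCl4-fib, grouped by their labels. The signal values deposited by the authors came from SMARTer-amplified single-end reads aligned to mm10 with STAR and counted by HOMER on the exons of RefSeq genes, both strands together and at most 3 reads per position. Per the file headers, the signal was then scaled for DESeq2 together with another library, not used here. Every value was a whole number of reads times 1 factor per library (100% of values), so reads were recovered. Because the values are not counts, limma 3.58.1 in R 4.3.3 was run on log2(value + 1), in 1 fit of 3 group means with a mean-dependent prior on the spread. It covered the 13651 genes that passed filterByExpr (minimum count 10), and adjusted p-values are Benjamini-Hochberg values over all of them. A fold change on this scale understates the change of low genes. With 3 libraries against 3, an exact permutation test of a single gene cannot reach p = 0.05 (smallest two-sided p 0.1). A group with no read was set to 3 reads per library for bounds. Ratios against 1 to 3 reads carry an exact 95% interval, which covers counting error only, since amplified reads are not independent molecules. Exon overlaps and GC content came from GENCODE on GRCm38, and promoters from RefSeq on GRCm38.p6. By symbol, 23334 of the 24453 genes matched a RefSeq gene of GRCm38.p6.

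The genes named are the 10 called ones with the largest change and the 10 with the largest difference per kb in each direction, up to 6 called members of each hand-written gene list, the cell type markers, and Fgf9, Col1a1, Col1a2, Acta2, Mc4r and Ptprc. Outside this rule, and chosen after their values were seen, are Agtr1a, Aldh1a1, Bmp5, Cdh2, Col3a1, Dcn, Ednrb, Fgfr2, Gdf2, Lamb1, Plin2, Ptger2, Sparc and Tbx20. Some members of the lists are counted but not reported by name here. The comparison and the lists were chosen with earlier results of these data known. No column of values was left unused (0). Alternatives were pseudocounts of 0.5 and 8, no filter, an average RPKM over 100, edgeR 4.0.16, DESeq2 1.42.0, TMM and upper-quartile scaling, a fit on 2 groups, blocks, a constant prior, each library left out in turn and, added after seeing the data, a GC and length correction and a fit without HSC replicate 2 and NASH-fib replicate 1.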

Additional observations from a re-analysis of the deposited data

How the results depend on the processing

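For NASH-fib against HSCs, the count of genes called in each direction stayed within 1.5 times the main one (1124 higher, 587 lower) under both other pseudocounts, no filter, edgeR (1095 and 481), DESeq2 (1415 and 742), TMM and upper-quartile scaling, the fit on 2 groups (771 and 407) and the GC and length correction (1228 and 716). An average RPKM over 100 left 1080 genes, of which 81 were higher and 50 lower. The leading number of the labels as a block gave 549 and 119, in a fit where HSC replicate 1 had no weight on the group difference. How much of the fall came from this was not tested. Leaving out 1 library gave 880 to 1295 higher and 325 to 698 lower, and leaving out HSC replicate 2 and NASH-fib replicate 1 gave 1346 and 704.

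The replicate numbers did not pair the samples: correlations of the deviations of same-numbered HSC and NASH-fib libraries were -0.20, -0.47 and 0.51, and HSC replicate 2 went best with NASH-fib replicate 1 (0.65). The fit with a replicate block called 1017 higher and 470 lower against HSCs, and 472 and 457 against CCl4-fib.

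For NASH-fib against CCl4-fib (678 higher, 773 lower), an average RPKM over 100 gave 77 and 82, DESeq2 1518 and 1161, and the label number block 344 and 249. Leaving out 1 library gave 113 to 794 higher and 72 to 1013 lower, and the cause was not tested.

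Some named genes that were not called, such as Sparc, Rgs5 and Plin2, were not followed through the alternatives. Of the 222 that were, Ptprc alone changed sign under any alternative. Its log2 fold change of -0.07 became 0.1732 in edgeR and 0.1776 in DESeq2, and -0.6276 to 0.7029 with 1 library left out (above 0 without HSC replicate 2 or 3 or NASH-fib replicate 2). Of 222 named genes, 70 lost their call with the label number block, 31 without HSC replicate 1 and 31 without NASH-fib replicate 2. With 3071070 to 5021156 reads on genes per library, 10802 genes of the table held too few reads to be tested.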
